A study of Mus musculus with 12 samples.

Results

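Predicted piRNAs that the deposited tables assign to LTR/ERVL or LTR/ERVL-MaLR repeats were followed through 12 small RNA libraries from mouse prefrontal cortex (PFC). The members are all small RNAs listed as piRNA with a predicted (novel_pir) identifier and a description naming one of these repeat families. The locus inside Vav2, with 38 predicted piRNAs, was left out. This gave 84 predicted piRNAs at 19 loci, of 424 predicted piRNAs at 114 loci and 693 piRNAs in all. Of the 19 loci, 4 belong to LTR/ERVL and 15 to LTR/ERVL-MaLR. The family names are those of the deposited descriptions and were not checked against the genome sequence here.

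piRNAs are small RNAs that guide PIWI proteins, best known in the germline, where they silence transposable elements by cutting their transcripts and by directing chromatin marks to them. ERVL elements are endogenous retroviruses of the class related to spumaviruses, and MaLR elements are old non-autonomous LTR retrotransposons that depend on proteins made by other elements. In brain tissue, short reads from such repeats may be bound piRNAs or pieces of longer transcripts, and a count of reads does not tell these apart.

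All mice were C57BL/6, and the study used adult males trained and tested for conditioned place preference (CPP), in which an animal learns to prefer a chamber paired with a drug. The SS group received saline only, the CS group cocaine and saline, the MS group l-methionine and saline, and the MC group l-methionine and cocaine. In MS and MC, l-methionine was injected under the skin at 1 g/kg, 2 times a day for 10 days, as the labels give it, while a figure legend of the study names a lower dose. Each group had 3 libraries, and each library was made from RNA pooled from 2 animals, so the spread between libraries is a spread between pools and not between single mice. All p-values measure this spread only.

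Values are given as counts per 1000000 counts of the library (CPM), and by the total counts of the libraries, smallest in MC 16 and largest in SS 14, 1 CPM stood for 7.77 to 11.1 counts. The neuronal and cortical miRNA markers miR-124, miR-9, miR-128 and miR-138 summed to 104647 to 272430 CPM over the 12 libraries. The libraries were clustered by their profiles of 125 miRNA precursor families, which hold no member, and cut into 3 sets. The number of sets was imposed and not found in the data. Set A held SS 12, CS 8 and CS 9, set C held CS 10, MC 16 and MC 17, and set B the other 6. No MS or MC library lay in set A. The labels name no batch, so the sets rest on this clustering and not on a record. Nor were they close groups by every measure. The chi-square per degree of freedom over 514 miRNAs, lower for closer pairs, was 1962 for SS 12 and CS 8, both in set A. For CS 10 in set C and MS 23 in set B it was 198. In a bulk sample, fewer cells of a type and less RNA per cell cannot be told apart.

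The members were a small and uneven part of the libraries. They summed to 264 CPM ± 81.6 (SD, n = 12), which was 19.7% of the counts of all predicted piRNAs. MaLR loci gave 220 CPM and ERVL loci 43.6 CPM. For comparison, loci of LTR/ERV1 summed to 581 CPM, LTR/ERVK to 148 CPM and LINE/L1 to 54.0 CPM. Of the 84 piRNAs, 18 were listed in all 12 libraries, 15 in 6 to 11, 27 in 2 to 5, and 24 in 1 library only. The lowest count with which a predicted piRNA was listed was 10, so a value of 0 for a piRNA is read here as fewer than 10 counts and not as absence. That reading assumes a floor of 10 counts, which the sources used here do not state. On it, a locus at 0 can hold that much for each of its piRNAs. Library MC 16 alone held 15 of the 24 piRNAs listed once.

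The 19 loci were between 44 and 1846 bp long, with a median of 269 bp (mm10 coordinates). Against the GENCODE M21 annotation, 10 lay in introns and 9 between genes, and 0 overlapped an exon. By the strand in the locus name, which the sources used here do not say is the strand of the reads, 7 of the 10 intronic loci lay on the strand opposite to the host gene and 3 on the same strand. Over both kinds, 12 loci were on the minus strand and 7 on the plus strand. The piRNAs of a locus share its position and are not independent of each other.

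By the positions in the deposited descriptions, a single MaLR locus carried most of the signal. Whether its reads also match other copies of the repeat was not checked here. The chr5 MaLR locus at chr5:17118211-17118485 (minus strand, 275 bp) lay between genes, 236 kb from the nearest protein-coding gene, Gm28710. It held 17 of the predicted piRNAs and 70.9% of the members' counts, with a share between 50.7% and 84.3% in single libraries. Scaled to length, its level was 679 CPM per kb. The next loci on this scale were the chr3 ERVL locus with 68.4 CPM per kb and the chr10 MaLR locus near Scml4 with 67.7 CPM per kb.

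In the sum over all 19 loci, the levels in the SS libraries 12, 13 and 14 were 354, 219 and 220 CPM. The CS libraries 8, 9 and 10 had 384, 353 and 275 CPM. The MS libraries 3, 4 and 23 had 156, 157 and 241 CPM. CS lay above MS in each library, while SS overlapped both. The MC libraries 16, 17 and 20 had 369, 217 and 220 CPM, a range that overlapped those of SS, CS and MS. The share of counts held by the members did not pass a test among the 4 groups (exact permutation test of the F statistic, two-sided, 369600 groupings, p = 0.135). Without the chr5 locus the p of this exact test was 0.723. On the log2 of the share it was 0.128, with the Vav2 locus included 0.374, and for the share of all piRNA counts 0.0988. Taken as a share of the predicted piRNA counts, the members' part averaged 20.2% for SS, 24.3% for CS, 16.7% for MS and 17.4% for MC. The exact permutation p was 0.0376 for this share. The predicted piRNA counts still include the Vav2 locus, which had 292 CPM in MC 16. The 3 libraries of set A had the highest shares (27.2% in CS 8, 26.1% in CS 9 and 21.5% in SS 12), and CS 10 had 19.7%. Without set A the exact permutation p was 0.437 for this share and 0.441 for the share of all counts, in alternatives added after seeing the data.

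**Figure D1:**
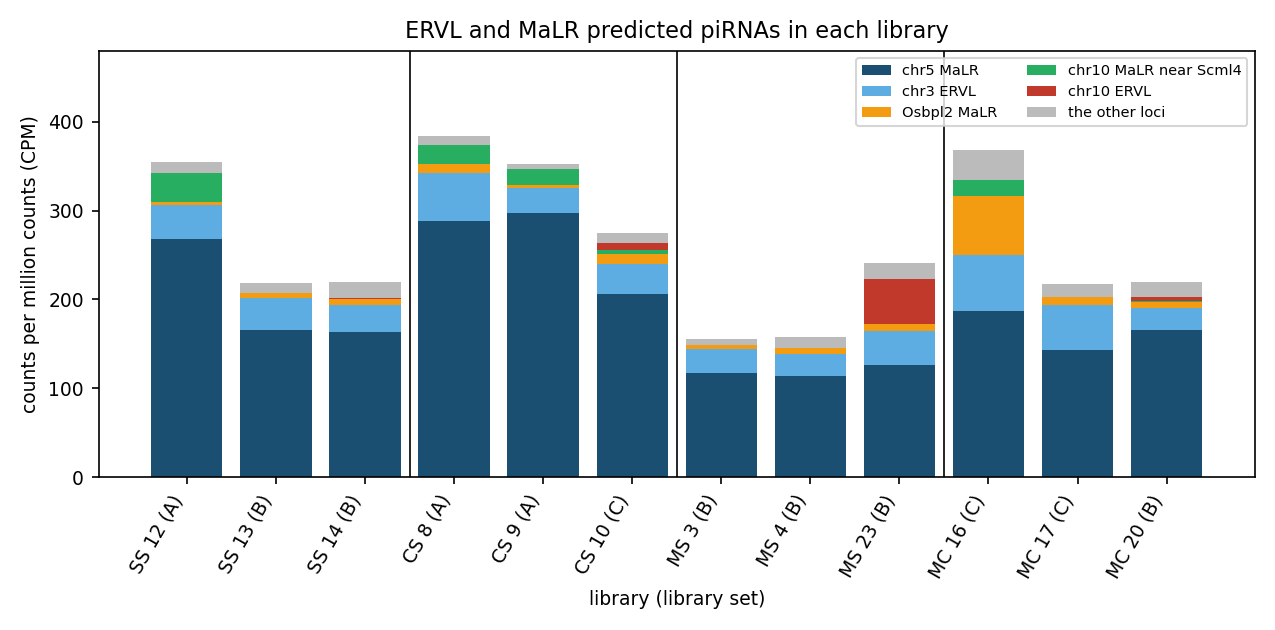
Level of the ERVL and MaLR predicted piRNAs (CPM, y axis) in each of the 12 libraries (x axis, with the library set in brackets), stacked by locus for the 5 loci with the highest mean and the other 14 together; vertical lines separate SS, CS, MS and MC. The chr5 MaLR locus is the largest segment in every library, the chr10 ERVL segment stands out in MS 23 and the Osbpl2 MaLR segment in MC 16.

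The CPM of the chr5 MaLR locus was lower in each MS library than in each SS library, and lower in each MC library than in each CS library, but neither difference passed the adjusted test. The SS libraries had 268, 165 and 163 CPM, and the CS libraries 289, 297 and 206 CPM. The MS libraries had 117, 114 and 126 CPM, and the MC libraries 187, 143 and 165 CPM. SS overlapped CS and MC, and MS was the lowest group. The group means were 199 ± 59.8 CPM for SS, 264 ± 50.5 for CS, 119 ± 6.30 for MS and 165 ± 22.0 for MC (SD, n = 3 each). A lowest mean in MS was not particular to this locus. The sums of LTR/ERV1 (442 CPM in MS, 616 in SS) and LINE/L1 (28.5 in MS, 46.7 in SS) were lowest there too, with MS overlapping SS in both. The sum of LTR/ERVK was lowest in MC (133 CPM, with 150 in MS).

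For MS vs SS the log2 fold change of the chr5 MaLR locus was -0.80 with a standard error of 0.265 (edgeR quasi-likelihood test, unadjusted p = 0.0127, adjusted p = 0.702). For MC vs CS it was -0.79 with a standard error of 0.265 (edgeR, unadjusted p = 0.0135, adjusted p = 0.835). Under the alternatives the adjusted p ranged from 0.110 to 1 for MC vs CS, and from 0.430 to 1 for MS vs SS. For CS vs SS the log2 fold change was 0.13 with a standard error of 0.264 (edgeR adjusted p = 0.990). The interaction, the difference in the cocaine response with and without l-methionine, was 0.010 on the log2 scale with a standard error of 0.373 (edgeR adjusted p = 1).

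The library sets moved with the chr5 locus. The 3 libraries of set A, on the SS and CS sides only, had 268 to 297 CPM and the other 9 libraries 114 to 206 CPM. Within set B, SS had 163 to 165 CPM and MS 114 to 126 CPM, so these groups still did not overlap, and the MC library had 165 CPM. Within set C, the CS library had 206 CPM and the MC libraries 143 and 187 CPM. Without set A, an alternative added after seeing the data, the log2 fold change was -0.45 for MS vs SS, and that for MC vs CS, with CS 10 as the only CS library, was -0.38. Of 8 lists of miRNA markers of cell types, 4 were higher in MS than in SS without overlap and 0 separated MC from CS. In CS vs SS 1 list was higher without overlap, that of red blood cells (2406 to 2687 against 1504 to 2229 CPM). The endothelial miR-126a had 7669 to 9877 CPM in MS and 6580 to 7375 CPM in SS. The red blood cell markers miR-451a, miR-144 and miR-486a summed to 2573 to 3975 CPM in MS against 1504 to 2229 CPM in SS. Most of this sum was miR-451a (2544 to 3947 against 1489 to 2205 CPM). Of the others, miR-144 separated too (13.9 to 17.1 against 3.19 to 5.10 CPM), while miR-486a overlapped (13.5 to 15.4 against 11.6 to 26.1 CPM). The liver marker miR-122 had 71.1 to 2527 against 11.9 to 60.2 CPM. The muscle markers miR-1a, miR-133a and miR-206 summed to 35.01 to 87.4 against 26.99 to 32.1 CPM. Most of the muscle sum was miR-133a (33.0 to 82.3 against 24.8 to 29.4 CPM), while miR-1a and miR-206 overlapped between MS and SS. The neuronal miR-124 was at 30032 to 70291 CPM in SS 14, CS 8, MS 4 and all 3 MC libraries and at 148945 to 176348 CPM in the other 6, a division that crosses the sets. The division was one of miR-124 and not of the whole neuronal list. In the libraries low in miR-124, miR-9 had 16970 to 66176 CPM, miR-128 16183 to 28587 CPM and miR-138 17003 to 27924 CPM. In the others these had 43508 to 55228, 17894.5 to 26271 and 16646 to 20490 CPM. Among the 6 libraries low in miR-124, the chr5 locus had 163 CPM in SS 14, 289 in CS 8, 114 in MS 4 and 143 to 187 in MC. Among the other 6, SS had 165 and 268 CPM, MS 117 and 126 CPM, and CS 206 and 297 CPM. The part of the sets, of the marker cell types and of miR-124 in the result was not tested.

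**Figure D2:**
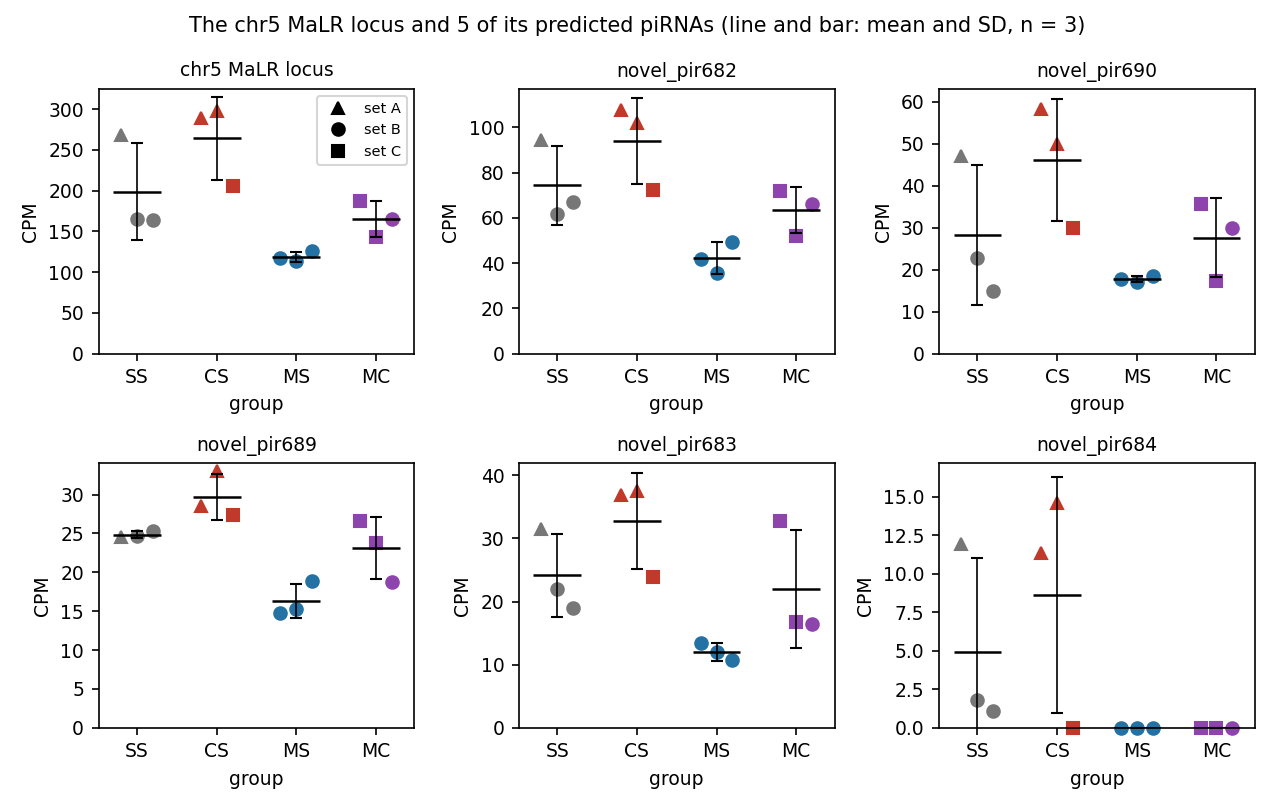
CPM (y axis) of the chr5 MaLR locus and of 5 of its predicted piRNAs by group (x axis); each point is a library, its shape gives the library set, and the black line and bar are the mean and SD of 3 libraries, cut at 0. For the locus the MS libraries sit at 114 to 126 CPM, below every SS library, and novel_pir684 is listed in no MS or MC library.

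Within the chr5 locus 4 piRNAs held most of the counts. The most abundant member of all, novel_pir682, made up 36.9% of the locus, between 31.3% and 41.0% in single libraries. It was followed by novel_pir690 with 15.9% (9.18% to 20.2%), novel_pir689 with 12.7% (9.17% to 16.7%) and novel_pir683 with 12.1% (8.49% to 17.6%). These 4 were listed in every library and had the highest mean CPM of the 84 members, and novel_pir638 of the chr3 ERVL locus was the fifth.

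For novel_pir682 the SS libraries had 94.2, 61.9 and 66.9 CPM, the MS libraries 41.9, 35.6 and 49.4 CPM, the CS libraries 108, 102 and 72.5 CPM, and the MC libraries 71.8, 52.2 and 66.3 CPM. For novel_pir690 the SS libraries had 47.0, 22.8 and 15.0 CPM and the MS libraries 17.7, 17.1 and 18.5 CPM. Its CS libraries had 58.3, 49.8 and 29.9 CPM and its MC libraries 35.7, 17.3 and 30.0 CPM. Thus novel_pir682 separated MS from SS and MC from CS, and novel_pir690 overlapped in both comparisons. The level of novel_pir689 was 24.5, 24.6 and 25.4 CPM in SS and 14.8, 15.3 and 18.9 CPM in MS, and 28.6, 33.1 and 27.4 CPM in CS and 26.6, 23.8 and 18.8 CPM in MC. The SS library of set A did not stand apart from the other SS libraries in novel_pir689, unlike in novel_pir682. For novel_pir683 SS had 31.5, 22.0 and 19.0 CPM, CS 36.8, 37.5 and 24.0 CPM, MS 13.5, 12.0 and 10.7 CPM, and MC 32.8, 16.8 and 16.5 CPM. It was lower in every MS than in every SS library, while MC overlapped CS through MC 16.

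When every predicted piRNA was tested on its own beside the known piRNAs, 281 features passed the filter, among them 47 of the 84 members. None of the 281 was called by edgeR in any comparison (0% of the background). All 15 tested piRNAs of the chr5 locus had a negative log2 fold change in MS vs SS, and all 15 had one in MC vs CS. Because they share a locus and the libraries, these are not 15 separate observations. In MS vs SS, 7 of the 47 members were lower without overlap, 6 of them at chr5 and novel_pir632 at the chr3 ERVL locus. The background was 4.63% of the features (13 of 281, these 7 included). In MC vs CS, 7 members were lower without overlap, 6 of them at chr5 and novel_pir85 at the chr10 MaLR locus near Scml4. The background was 4.63% (13 of 281 features, these 7 included). In CS vs SS, novel_pir689 and novel_pir692 at chr5 and novel_pir540 at the Osbpl2 MaLR locus were higher without overlap, and novel_pir632 was lower. A share over all features was not taken for CS vs SS. At an unadjusted p under 0.05 there were 6 members in MS vs SS, where the background was 3.56% (10 of 281). There were 4 in MC vs CS, where it was 4.63% (13 of 281). Both backgrounds include the members themselves.

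Of the 17 piRNAs of the chr5 locus, 3 were listed in no library with l-methionine, and 0 were listed in such libraries only. Over all 84 members the same numbers were 19 and 22. Of the 19, 15 were listed in set A only, which holds no library with l-methionine, and of the 22, 15 were listed in MC 16 only. At the chr5 locus 2 of the 3 were listed in set A only. The smallest p among single members in MS vs SS belonged to novel_pir692 (edgeR unadjusted p = 0.00394, adjusted p = 0.515). Its counts were 14, 10 and 11 in SS and 29, 32 and 18 in CS, it was listed in no MS library, and MC 17 and MC 20 had 11 and 12. The SS counts lay close to the lowest listed count of 10. The smallest p in MC vs CS belonged to novel_pir684 (edgeR unadjusted p = 0.00718, adjusted p = 0.505). Its counts were 98, 18 and 12 in SS and 96, 127 and 0 in CS, and it was listed in no MS or MC library. The 3 high values were those of set A, whose part was not tested. In CS vs SS the smallest p among members was that of novel_pir641 at the chr3 ERVL locus, which had 0, 10 and 20 counts in SS and was listed in no CS library (edgeR unadjusted p = 0.0767, adjusted p = 0.894). No fold change is given for these 3 piRNAs, because 1 group of each comparison held no listed count.

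The chr3 ERVL locus was the second in abundance and did not separate the groups. It lay at chr3:134773527-134774074 (minus strand, 548 bp), 54.9 kb from Tacr3, which encodes the neurokinin B receptor, and held 14 predicted piRNAs. The SS libraries had 38.4, 36.8 and 30.0 CPM, the CS libraries 53.1, 28.0 and 33.5 CPM, the MS libraries 27.1, 25.3 and 38.6 CPM, and the MC libraries 62.7, 51.0 and 25.3 CPM. All 4 groups overlapped. The log2 fold changes were -0.24 in CS vs SS, -0.31 in MS vs SS and 0.21 in MC vs CS, each with a standard error between 0.380 and 0.381 (edgeR adjusted p = 0.990, 0.958 and 0.938). Its leading piRNA, novel_pir638, ranged from 7.40 to 14.4 CPM, and its log2 fold change was -0.0076 in MS vs SS with a standard error of 0.331 (edgeR adjusted p = 1).

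The next 3 loci were each decided by single libraries or by set A. The Osbpl2 MaLR locus at chr2:180139838-180140104 lay in an intron of Osbpl2, which encodes a lipid transfer protein of the oxysterol-binding family, on the opposite strand. It held 518 counts (66.7 CPM) in MC 16 and between 2.99 and 11.9 CPM in the other 11 libraries. Its log2 fold change in MC vs CS was 1.44 with a standard error of 0.780 (edgeR adjusted p = 0.938) and -0.11 without MC 16. All 9 of its piRNAs were listed in MC 16, 3 of them nowhere else. MC 16 also had the smallest total, the highest TMM scaling factor (a correction for composition) of 1.423, and the lowest endothelial (2972 CPM) and red blood cell (406 CPM) markers. Of its neuronal and cortical markers, miR-9 (16970 CPM, elsewhere 43508 or more) and miR-128 (16183 CPM, elsewhere 17894.5 or more) were the lowest as well. Its miR-138 (25131 CPM, elsewhere 16646 to 27924) and miR-124 (46363 CPM, elsewhere 30032 to 176348) were not. Among signs of RNA breakdown, its share of counts on exons was the highest (16.1%, elsewhere 7.40% to 10.9%). So was its share on rRNA (0.315%, elsewhere 0.0419% to 0.232%), but not that on tRNA (0.127%, with 0.150% in MC 20). The part of these traits of MC 16 was not tested.

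The chr10 MaLR locus near Scml4, at chr10:42856810-42856927 (118 bp, 3.44 kb from Scml4, a gene of the Polycomb-related family), held 21 predicted piRNAs, the most among the 19 loci. It had 31.7 CPM in SS 12, 20.5 and 18.5 CPM in CS 8 and CS 9, and 18.4 CPM in MC 16. In the other 8 libraries it had between 0 and 4.40 CPM. With a floor of 10 counts, a 0 there could hide up to 189 counts if each of the 21 piRNAs stayed just unlisted. The 4 high libraries held 143 to 261 counts. High levels were thus those of the 3 libraries of set A and of MC 16. Of the 21 piRNAs, 10 were listed in set A only and 5 in MC 16 only, while 4 were listed in both. In MS vs SS its log2 fold change was -4.90 with a standard error of 2.70 (edgeR adjusted p = 0.702), but 4.73 without SS 12 and 4.83 without set A. With 1 or more libraries of a group not listed, the size of these values depends on the prior count.

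The chr10 ERVL locus at chr10:82955393-82955521, 30.0 kb from Chst11, which encodes a chondroitin sulfotransferase, held the single piRNA novel_pir112. It had 524 counts (50.4 CPM) in MS 23, and 23, 64 and 49 counts in SS 14, CS 10 and MC 20. It was not listed in the other 8 libraries. The log2 fold change in MS vs SS was 4.19 with a standard error of 3.22 (edgeR adjusted p = 0.743), and it turned negative without MS 23, which leaves no listed count in MS, so that the size of that value depends on the prior count.

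**Figure D3:**
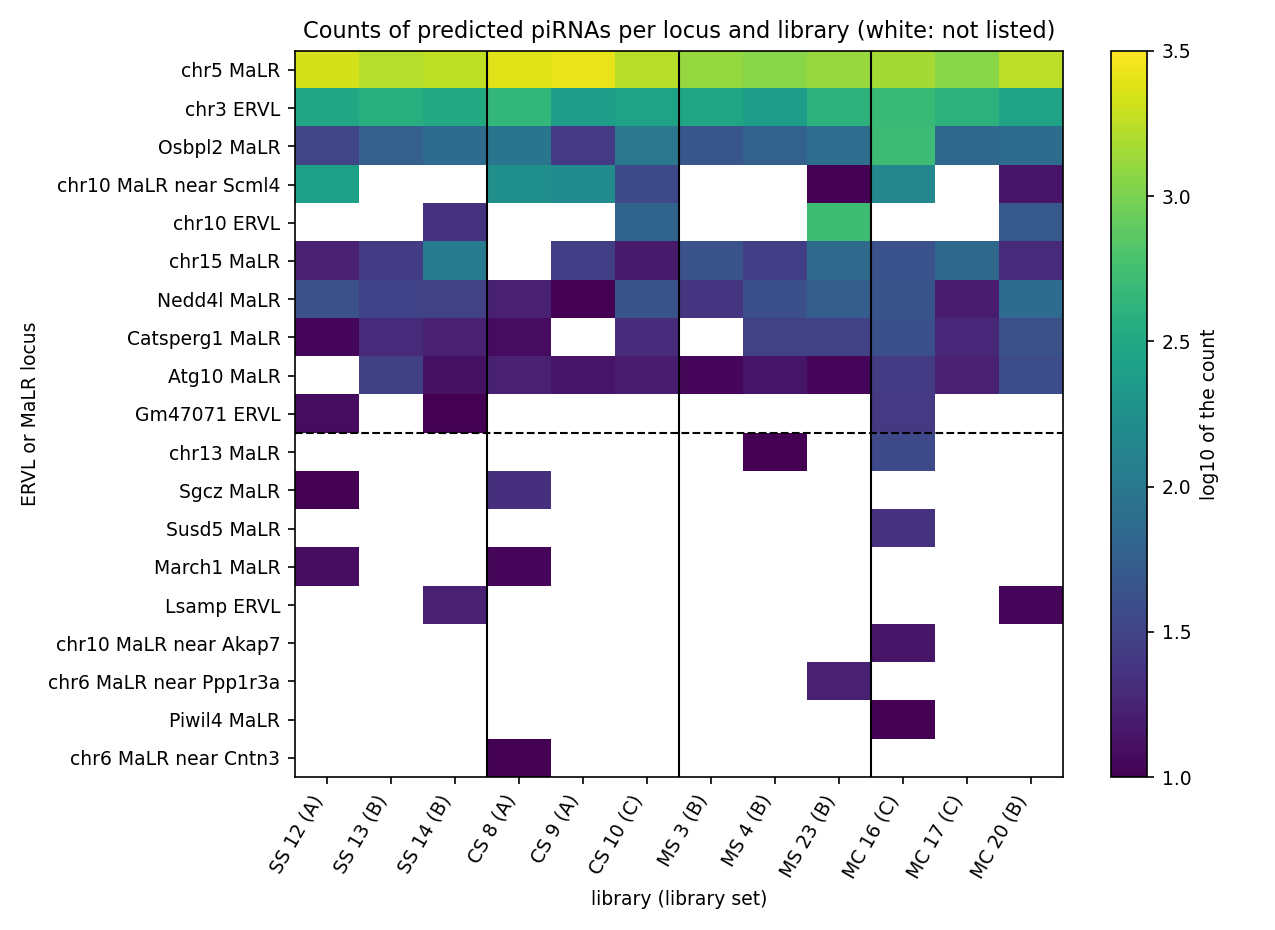
Counts of predicted piRNAs (colour, log10 of the count) at each of the 19 loci (y axis, ordered by mean CPM) in the 12 libraries (x axis, library set in brackets); white fields were not listed, vertical lines separate SS, CS, MS and MC, and loci below the dashed line did not pass the filter. The chr5 and chr3 rows are filled in every library, the chr10 MaLR row near Scml4 is brightest in set A and MC 16, and below the dashed line no count exceeds 36.

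The remaining tested loci were low. The chr15 MaLR locus at chr15:29613854-29614249, 558 kb from the delta-catenin gene Ctnnd2, ranged from 0 to 9.66 CPM with its single piRNA novel_pir258. The Nedd4l MaLR locus at chr18:65035686-65036155 lay on the strand of Nedd4l, which encodes a ubiquitin ligase that acts on ion channels, and ranged from 1.15 to 6.87 CPM. The Catsperg1 MaLR locus at chr7:29192600-29194445, opposite to a gene for a subunit of the sperm calcium channel, ranged from 0 to 5.28 CPM. In CPM, no compared groups separated at these 3 loci, while on the TMM-scaled CPM the Catsperg1 MaLR locus was higher in each MC than in each CS library. The edgeR adjusted p was 0.938 or above in each comparison.

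The Atg10 MaLR locus at chr13:90949919-90950187 lay on the strand of Atg10, whose product is an enzyme of autophagosome formation. Its single piRNA, novel_pir236, had 2.01, 1.61 and 1.96 CPM in CS and 3.48, 2.13 and 3.57 CPM in MC. MC was higher than CS without overlap in CPM, with a log2 fold change of 0.62 and a standard error of 1.09 (edgeR adjusted p = 0.938). The Gm47071 ERVL locus at chr13:55843651-55843767, opposite to the non-coding gene Gm47071, was listed in 3 libraries, with 12 counts in SS 12, 10 in SS 14 and 26 in MC 16. Its interaction had an unadjusted p of 0.0249 and an adjusted p of 0.979 in edgeR, and rests on these 3 counts. Its piRNA novel_pir230 had the smallest p of the single members in the interaction (edgeR unadjusted p = 0.0300, adjusted p = 1.00).

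Over all comparisons, edgeR called 0 of the 10 tested loci in MS vs SS, MC vs CS, CS vs SS and the interaction, and DESeq2 called 0 as well. The call needed an adjusted p no higher than 0.05 and, outside the interaction, a log2 fold change of 1 or more in either direction. The background over all 136 piRNA features tested was 0% in each. At an unadjusted p under 0.05 there were 0 of the 10 loci in CS vs SS (background 1.47%), 1 in MS vs SS (3.68%) and 1 in MC vs CS (3.68%), both times the chr5 locus, and 1 in the interaction (2.21%). The smallest adjusted p of the 10 loci was 0.990 in CS vs SS, 0.702 in MS vs SS, 0.835 in MC vs CS and 0.979 in the interaction.

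Counts of loci without overlap, taken in CPM without TMM factors, were low as well. In CS vs SS, 0 loci were lower (background 1.47%) and 0 higher (5.88%). In MS vs SS, 1 was lower (2.94%) and 0 higher (8.09%). In MC vs CS, 1 was lower (4.41%) and 1 higher (2.21%). On TMM-scaled CPM, an alternative added after seeing the data, 2 loci were higher in MC (background 2.94%), Atg10 MaLR and Catsperg1 MaLR, and the other counts did not change.

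Medians of the log2 fold change over the 10 loci were -0.15 in CS vs SS, -0.28 in MS vs SS, 0.65 in MC vs CS and 1.25 in the interaction. Over all 136 features they were 0.17, -0.18, -0.0064 and 0.25. Without TMM factors the median of all features moved by 0.30 in CS vs SS, by 0.13 in MS vs SS and by 0.10 in MC vs CS, and that of the members in CS vs SS changed from -0.15 to 0.27. Without the Gm47071 ERVL locus, whose fitted values rest on groups with no listed count, the medians of the other 9 loci were -0.055, -0.25, 0.62 and 1.12. In MC vs CS 7 of the 10 loci had a positive value, against 67 of all 136 features, while the locus with most counts had a negative one. The 3 comparisons share groups: CS vs SS shares its control with MS vs SS, and MC vs CS has CS as its control.

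**Figure D4:**
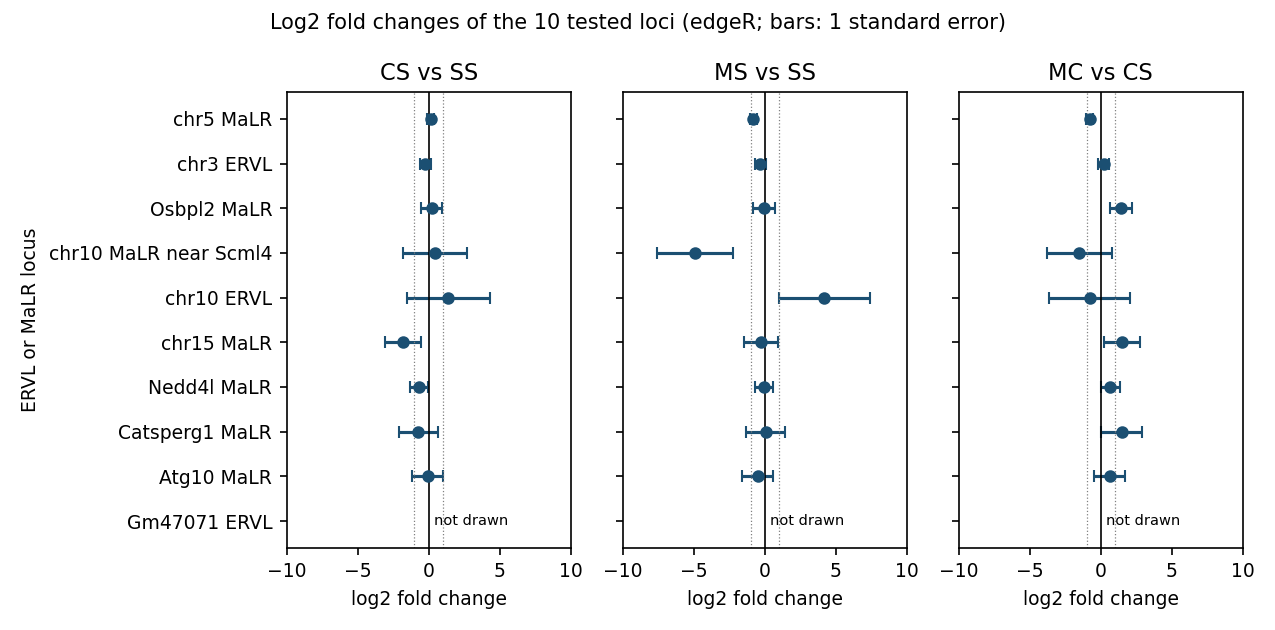
Log2 fold change (x axis) with 1 standard error of the 10 tested loci (y axis, ordered by mean CPM) in MC vs CS, MS vs SS and CS vs SS, from edgeR; dotted lines mark a change of 1 in either direction, and the Gm47071 ERVL locus was not drawn because 1 group of each comparison held no listed count. The chr5 MaLR locus is at -0.80 in MS vs SS and -0.79 in MC vs CS with short bars, and loci listed in few libraries have bars of several log2 units.

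The 9 loci that did not pass the filter of at least 5 counts in at least 3 libraries held 10 to 36 counts wherever they were listed. None was listed in 3 or more libraries, 5 were listed in 1 library and 4 in 2. MC 16 alone held the Susd5 MaLR, the chr10 MaLR near Akap7 and the Piwil4 MaLR locus, with 23, 14 and 10 counts. The last of these lay in an intron of Piwil4, a gene of the PIWI family itself, on the opposite strand. The Sgcz MaLR and March1 MaLR loci were listed only in SS 12 and CS 8, both of set A. The Lsamp ERVL locus, in a gene for a neuronal adhesion protein, was listed in SS 14 and MC 20 with 17 and 11 counts. The chr13 MaLR locus had 36 counts in MC 16 and 10 in MS 4, the chr6 MaLR locus near Ppp1r3a 17 in MS 23, and the chr6 MaLR locus near Cntn3 10 in CS 8. These 9 loci were named after their values were seen, and no comparison was made for them.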

How the data were processed

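Small RNA of 18 to 30 nt from the PFC was sequenced by the authors in 12 libraries. According to the study's methods, reads were filtered, mapped with AASRA and, after removal of miRNA, rRNA and tRNA matches, aligned to piRBase with Bowtie. How piRNAs were predicted is not given in the sources used here. The submitters' processing notes name mm10. The deposited counts are reads per small RNA without normalization. The authors also deposited TPM, in which each count was scaled to 1000000 counts of its library, and these values were not used. The counts summed to the total in the header of all 12 libraries.

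Counts of predicted piRNAs were summed per locus, while known piRNAs stayed single. A feature entered the tests if 3 or more libraries held 5 or more counts of it. The fit was made with edgeR 4.0.16 under R 4.3.3 (quasi-likelihood test, all 12 libraries, 1 coefficient per group, 8 residual degrees of freedom, total count as library size, TMM factors from the piRNAs), with Benjamini-Hochberg adjustment over all features tested. Shares were compared by exact permutation tests. The script was tested on simulated data. The members, lists and rules were chosen with earlier results of these data known. Named are all loci that pass the filter, those listed in 3 or more libraries, the 5 single piRNAs with the highest mean CPM, and the one with the smallest unadjusted p per comparison. DESeq2 1.42.0 and the other alternatives are given in the closing section. Library pairs differed by a chi-square of at least 158 per degree of freedom over 514 miRNAs, so none held the counts of another. The closest pair was SS 12 and CS 9. Tables, permutations and plots were made with Python 3.11.15 (scipy 1.17.1, matplotlib 3.10.9, numpy 2.4.6, pandas 2.3.3).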

Additional observations from a re-analysis of the deposited data

How the results depend on the processing

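No call of a locus was made under edgeR in any comparison, and the count of called loci was 0 under all alternatives except 1: without a filter, 2 loci were called in MS vs SS, the chr10 MaLR locus near Scml4 (adjusted p = 0.000541) and the chr10 ERVL locus (adjusted p = 0.0100), which rest on SS 12 and MS 23. For the share of all counts the exact permutation p was 0.135, and leaving out single libraries gave 0.0664 to 0.309. The exact permutation p was 0.128 on the log2 of the share, 0.374 with the Vav2 locus included and 0.0988 for the share of all piRNA counts. As a share of the predicted piRNA counts it was 0.0376, from 0.0032 (without CS 10) to 0.0886 (without CS 8) with single libraries left out, above 0.05 without CS 8, CS 9, MS 3, MS 4 or any of the MC libraries, and 0.437 without set A. On TMM-scaled CPM, 2 loci in place of 1 were higher in MC than in CS without overlap. The chr5 MaLR locus kept a negative log2 fold change in MC vs CS and in MS vs SS under every alternative run (-1.05 to -0.38 and -0.93 to -0.45), where the -0.38 rests on 1 CS library. Other log2 fold changes changed sign. In CS vs SS, Atg10 MaLR was 0.039 under DESeq2, 0.17 with TMM from all features, 0.41 without TMM, 0.13 at 10 counts, 0.035 without a filter and 2.93 with library set as covariate, Osbpl2 MaLR was -0.14 with the covariate, and chr3 ERVL was 0.12 without TMM. In MS vs SS, the locus near Scml4 was 1.70 with the covariate and 4.83 without set A, Catsperg1 MaLR was -0.30 with the covariate, Nedd4l MaLR was 0.047 under DESeq2, 0.063 without TMM, 0.14 at 10 counts and 0.35 without set A, and Osbpl2 MaLR was 0.10 without TMM and 0.12 at 10 counts. In MC vs CS, the locus near Scml4 was 2.07 with the covariate and 0.21 without set A, Atg10 MaLR was -1.14 with the covariate, Nedd4l MaLR was -0.22 without set A and chr3 ERVL was -0.055 without a filter. Leaving out single libraries moved the values across 0 in CS vs SS for the locus near Scml4 (-0.23 to 10.04), chr10 ERVL (-6.14 to 7.48), Atg10 MaLR (-0.61 to 1.16), Osbpl2 MaLR (-0.13 to 0.62) and chr5 MaLR (-0.030 to 0.27), in MS vs SS for the locus near Scml4 (-9.54 to 4.73), chr10 ERVL (-6.07 to 10.44), Atg10 MaLR (-1.05 to 0.71), chr15 MaLR (-0.64 to 0.97), Nedd4l MaLR (-0.26 to 0.23), Osbpl2 MaLR (-0.32 to 0.24) and Catsperg1 MaLR (-0.29 to 0.72), and in MC vs CS for chr10 ERVL (-7.47 to 6.70), Osbpl2 MaLR (-0.11 to 1.56) and chr3 ERVL (-0.21 to 0.35). The cause was not tested. Tests of single piRNAs give no value per locus. No paired analysis was possible because the groups share no replicate number. No predicted piRNA was listed with a count under 10, which limits what the low loci can show. Fitted values with a group at 0 depend on the prior count.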
